A study of Homo sapiens with 4 samples.

Results

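The MYC, MAX and MXD network is a set of transcription factors that compete for MAX, and it was examined in U87 cells, an established human glioblastoma line, with and without carnosine, the dipeptide beta-alanyl-L-histidine. Its members were the 9 genes listed under the symbols MYC, MAX, MXD1, MXD3, MXD4, MXI1, MNT, MGA and MYCBP, of 58219 genes in all, and 9 of 9 had enough counts to be tested, among 16340 tested genes. One group was kept for 24 h in fresh medium holding 50 mM carnosine (2 libraries), and the other for the same 24 h in fresh medium without it (2 libraries). Both groups were grown in the same high-glucose medium with serum and seeded 24 h before the change of medium. RNA was freed of ribosomal RNA and sequenced as stranded total RNA.

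MYC is a basic helix-loop-helix leucine zipper protein that binds DNA only as a dimer with MAX, most tightly at the E-box CACGTG, and activates genes of ribosome assembly, nucleotide synthesis and cell growth. The MXD proteins, MNT and MGA also pair with MAX at E-boxes, and they recruit corepressors there. MYC is often raised in glioblastoma, where it is linked to growth and to the upkeep of stem-like cells.

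Library totals ran from 51632970 to 57728762 counts with carnosine and from 59155538 to 71766267 without it. Of 9 glioma and mesenchymal markers 7 were tested and 1, CHI3L1, rose (log2 fold change 0.55 ± 0.10). The mesenchymal markers VIM, CD44 and FN1 had many counts in every library, and the progenitor marker NES had 1426 and 1794 counts with carnosine and 2186 and 2583 in controls. Of the glial lineage markers, OLIG2 had 105 and 126 counts with carnosine and 253 and 241 in controls, GFAP had 4 to 16 counts a library, SOX2 had 2 counts in carnosine replicate 1 and 0 elsewhere, and S100B had 0 in every library. Of 10 markers of other cell types 5 were tested and 1 passed, PECAM1 of endothelial cells (log2 fold change 1.28 ± 0.21), where 8.31% of all tested genes passed. Of the neuronal markers, RBFOX3 was at 0 in all libraries, while SYT1 had 674 and 530 counts with carnosine and 680 and 626 in controls. The 10 markers of other cell types summed to 21.1 and 18.5 counts per 1000000 of the unscaled library total with carnosine, and to 13.8 and 15.4 in controls. Their part in the results below was not tested. Below, CPM stands for counts per 1000000 of the scaled library total.

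The E-box CACGTG, which reads the same on both strands, was looked for in the RefSeq promoter windows (GRCh38.p14) of 250 bases before to 50 after each start, of which 8 of the 9 members had at least 1. It was present for MXD4 and MNT, and in none of the windows of MAX, MXD1, MXD3, MXI1, MGA and MYCBP. Over all 27305 genes with such windows, 8.77% had the motif. The stretches of MXD4 and MNT are shown because they carry the letters that the network's dimers read. Those of IGF2BP3 and HK2 were picked because they carry the motif too and these genes around the network changed with carnosine, in opposite directions. Bases that lie in an exon of GENCODE 29 were left off, and capitals mark the E-box.
MXD4, chr4:2262295-2262359, minus strand: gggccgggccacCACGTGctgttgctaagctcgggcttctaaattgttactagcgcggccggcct
MNT, chr17:2401119-2401310, minus strand: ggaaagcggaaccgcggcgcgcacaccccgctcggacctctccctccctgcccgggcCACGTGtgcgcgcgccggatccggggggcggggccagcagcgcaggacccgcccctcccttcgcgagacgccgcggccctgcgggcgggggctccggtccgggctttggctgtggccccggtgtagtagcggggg
IGF2BP3, chr7:23470492-23470741, minus strand: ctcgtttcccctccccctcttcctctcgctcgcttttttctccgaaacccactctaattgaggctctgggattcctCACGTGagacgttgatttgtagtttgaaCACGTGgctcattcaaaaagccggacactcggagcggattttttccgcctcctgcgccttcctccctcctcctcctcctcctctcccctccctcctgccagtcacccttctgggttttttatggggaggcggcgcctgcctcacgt
HK2, chr2:74834920-74835169, plus strand: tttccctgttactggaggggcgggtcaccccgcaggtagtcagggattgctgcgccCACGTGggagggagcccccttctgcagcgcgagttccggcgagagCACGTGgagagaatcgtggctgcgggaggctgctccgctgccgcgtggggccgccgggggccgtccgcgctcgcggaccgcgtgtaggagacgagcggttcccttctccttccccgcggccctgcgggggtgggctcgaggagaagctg
The E-box begins 238 bases before the start in MXD4 and 193 bases before it in MNT. IGF2BP3 has the motif at 174 and 146 bases before its start, and HK2 at 194 and 149 bases before the second of its starts. A match is a run of letters in the sequence and not a measured binding site.

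None of the 9 members passed the test for a difference between carnosine and control (0 of 9 at an adjusted p under 0.05, edgeR's quasi-likelihood test, Benjamini-Hochberg over all genes tested), where 8.31% of all tested genes passed (3.95% higher and 4.36% lower with carnosine). At an unadjusted p under 0.05 there were 2, MYC and MXD4, where 27.4% of tested genes reached that level. The members' log2 fold changes ran from -0.46 for MXD3 to 0.42 for MXD4 with a median of 0.11, beside a median of 0.001 over all tested genes. Libraries of the groups did not overlap for 4 of 9 members, MAX, MXD4 and MGA being above and MYC below the controls, and for 56.5% of all tested genes (27.8% above and 28.8% below).

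The count of members called was 0 with RLE scaling (8.37% of tested genes called), upper-quartile scaling (8.29%), library totals only (7.04%), a mean count of at least 10 (8.44%) and limma-voom (8.09%), and 0 without carnosine replicate 1 (7.47%) or control replicate 1 (3.69%). It was 1 in DESeq2 (MXD4, 13.5%), without carnosine replicate 2 (MYC, 9.27%) and without control replicate 2 (MXD3, 2.94%). It was 3 with no filter on low counts (MYC, MXD3 and MXD4, 12%).

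**Figure D1:**
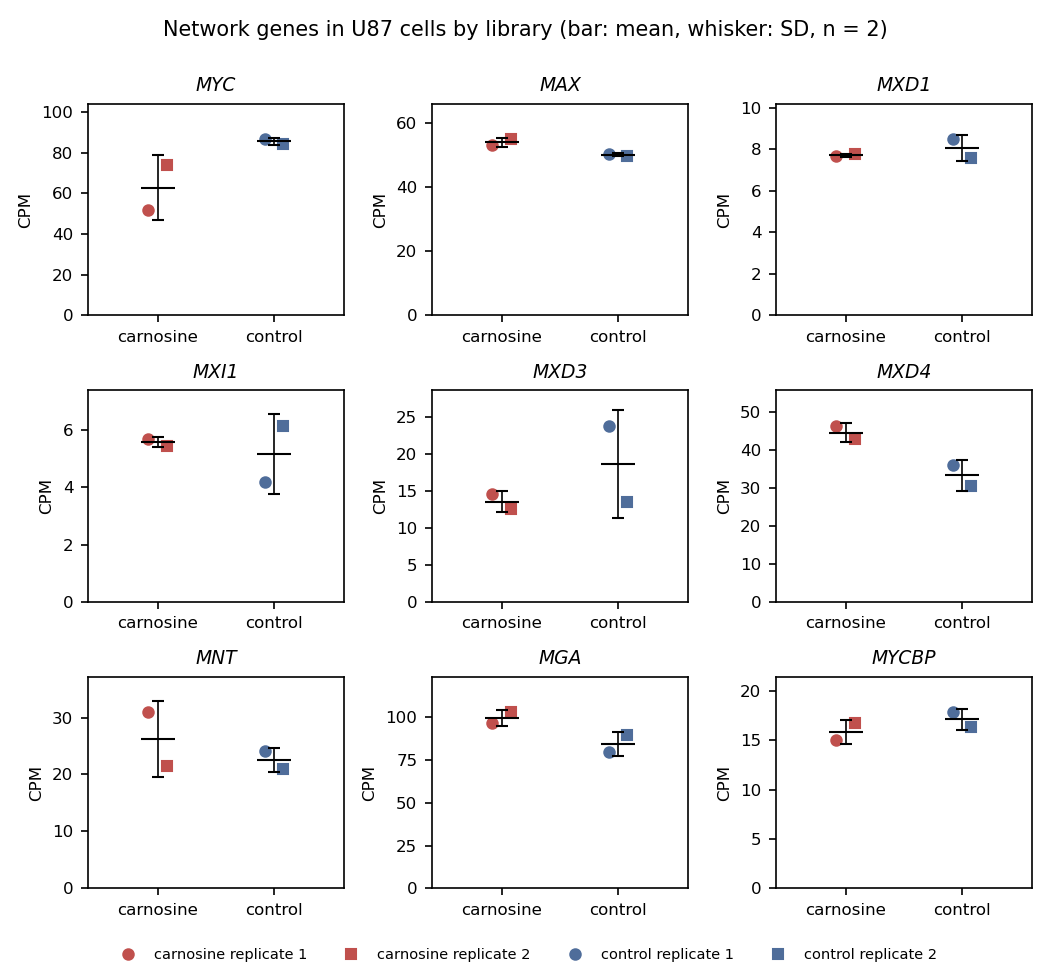
CPM (y axis, from 0) of each network gene in the carnosine (red) and control (blue) libraries, circles for replicate 1 and squares for replicate 2, with the mean as a bar and the SD as whiskers (n = 2 each). MYC lay below both controls in both carnosine libraries, and MXD4, MGA and MAX above them.

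MYC (ENSG00000136997.16, chromosome 8, 127735434 to 127741434, plus strand, GRCh38) had 51.7 and 74.1 CPM in the carnosine libraries, against 86.6 and 84.5 CPM in controls. Both carnosine libraries were below both controls, but they differed more from each other than the controls did. The mean was 62.9 ± 15.8 CPM with carnosine and 85.6 ± 1.54 CPM without it (SD, n = 2 each). The log2 fold change of -0.44 ± 0.17 (SE) had a 95% interval of -0.84 to -0.05 and did not pass (edgeR adjusted p = 0.142). Whether MYC passed depended on which carnosine library was kept. Without carnosine replicate 2 the log2 fold change was -0.73 and passed (edgeR adjusted p = 0.00975), and without carnosine replicate 1 it was -0.21 (edgeR adjusted p = 0.336). In bulk RNA, less MYC RNA in each cell and fewer cells that make it cannot be told apart.

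MYC's pattern over the 4 libraries was closest to those of AMN1, the gene listed as ENSG00000226121, ACTG1, HIST1H2BK and SPC24, by Euclidean distance of centred log2 CPM among 11966 other genes with a mean count of at least 100. Their distances ran from 0.0899 to 0.102, and none of these 5 passed the edgeR test (adjusted p from 0.106 for SPC24 to 0.251 for AMN1). ACTG1, cytoplasmic gamma actin, had 3629 and 4884 CPM with carnosine and 5663 and 5941 CPM in controls. These 5 genes were picked for their likeness to MYC in these same libraries. That they share its order of libraries and its lack of a call follows from that choice and is no separate result.

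MAX (ENSG00000125952.18, chromosome 14, 65006174 to 65102695, minus strand), the shared partner of all dimers, had 53.1 and 55.0 CPM with carnosine and 50.5 and 49.9 CPM in controls. The groups did not overlap, yet the gap was small, with a log2 fold change of 0.11 ± 0.09 (SE) and a 95% interval of -0.11 to 0.32. MAX had the narrowest interval of the 9 members.

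The MXD proteins hold a short domain near their start that binds SIN3, and so bring histone deacetylases to E-boxes. MXD4 (ENSG00000123933.16, chromosome 4, 2247432 to 2262294, minus strand) had 46.3 and 42.7 CPM with carnosine and 36.0 and 30.4 CPM in controls, the groups lying apart. It averaged 44.5 ± 2.55 CPM with carnosine and 33.2 ± 3.96 CPM without it (SD, n = 2 each), 1.34-fold higher. Its log2 fold change of 0.42 ± 0.12 (SE, 95% interval 0.14 to 0.70) missed the threshold in edgeR (adjusted p = 0.0732) and passed in DESeq2 (adjusted p = 0.0399). It stayed above 0 without any 1 of the 4 libraries, between 0.30 and 0.55. MXD4 thus had the smallest p of the network, and the nearest to a call.

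MXD3 (ENSG00000213347.10, chromosome 5, 177301461 to 177312757, minus strand), a member linked to dividing cells, had 14.5 and 12.6 CPM with carnosine and 23.8 and 13.5 CPM in controls. The groups overlapped, and control replicate 1 alone was high. The log2 fold change was -0.46 ± 0.25 (SE, 95% interval -1.06 to 0.14). Leaving out control replicate 1 brought it to 0.003, and leaving out control replicate 2 to -0.82, where it passed (edgeR adjusted p = 0.0356). Exons of MXD3 share 1158 of its 5154 exonic bases with PRELID1 of the opposite strand and 926 with RAB24 of the same strand. PRELID1 had 11320 and 11171 counts with carnosine and 13660 and 12084 in controls, many more than MXD3 with 874 and 634, and 1693 and 792. The counts of MXD3 are therefore uncertain, since whether strand was used in counting is not stated in the labels.

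MXD1 (ENSG00000059728.10, chromosome 2, 69897688 to 69942945, plus strand), the founding member, which is known for its rise when cells differentiate, had 7.67 and 7.76 CPM with carnosine and 8.48 and 7.60 CPM in controls. MXI1 (ENSG00000119950.20, chromosome 10, 110207605 to 110287365, plus strand) had 5.70 and 5.46 CPM with carnosine and 4.19 and 6.15 CPM in controls. For both genes the groups overlapped, and the controls were farther apart than the carnosine libraries. Their log2 fold changes were -0.06 (95% interval -0.41 to 0.29) for MXD1 and 0.11 (95% interval -0.41 to 0.64) for MXI1, and each turned its sign without control replicate 1, to 0.02 for MXD1 and -0.14 for MXI1.

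MNT (ENSG00000070444.14, chromosome 17, 2384060 to 2401118, minus strand), the broadly made antagonist that also binds SIN3, had 30.9 and 21.6 CPM with carnosine and 24.1 and 21.0 CPM in controls. Only carnosine replicate 1 stood above the rest, and the log2 fold change of 0.22 (95% interval -0.21 to 0.65) became -0.07 without it. MNT shares 1065 of its 8728 exonic bases with the antisense gene AC006435.1, which had no count.

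MGA (ENSG00000174197.16, chromosome 15, 41621224 to 41773081, plus strand), a very large protein with both a T-box and a helix-loop-helix zipper, had 96.6 and 103.0 CPM with carnosine and 79.6 and 89.5 CPM in controls. The groups did not overlap. The log2 fold change of 0.24 ± 0.11 (SE, 95% interval -0.01 to 0.49) did not pass (edgeR adjusted p = 0.20), and it lay between 0.15 and 0.32 without any 1 of the libraries.

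MYCBP (ENSG00000214114.8, chromosome 1, 38862964 to 38874105, minus strand), a small protein that binds the amino end of MYC and pairs with no MAX, had 15 and 16.7 CPM with carnosine and 17.9 and 16.4 CPM in controls. The groups overlapped, with a log2 fold change of -0.11 (95% interval -0.41 to 0.18). It shares 977 of its 3039 exonic bases with the read-through gene GJA9-MYCBP, which had no count, and how the counting treated reads in those bases was not tested.

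**Figure D2:**
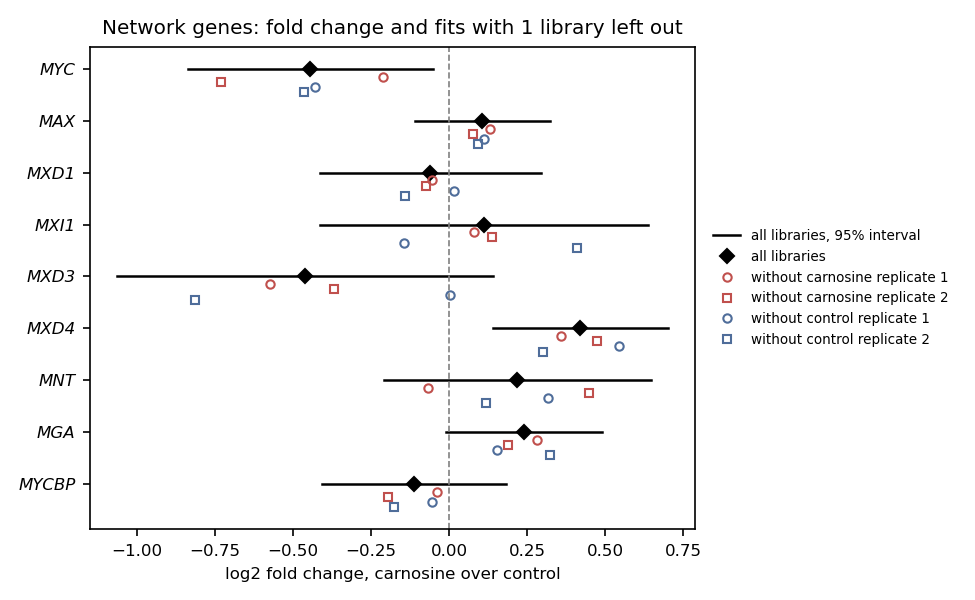
Log2 fold change, carnosine over control (x axis), of the network genes with all 4 libraries (diamond, with its 95% interval as a line) and with 1 library left out (open symbols, red for a carnosine and blue for a control library). MXD4, MGA and MAX stay above 0 and MYC and MYCBP below 0 in each fit shown, while MXD1, MXI1, MXD3 and MNT have fits on both sides of 0.

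Levels of different members can be set side by side only per length of exon. On the scale of CPM per kilobase of exon, MYC was the highest member with 17.2 and 24.7 in carnosine libraries and 28.9 and 28.1 in controls. MAX followed with 12 and 12.4 in carnosine libraries and 11.4 and 11.3 in controls, and it overlapped neither neighbour in the order. MXD4, MYCBP and MGA came next with means over the 4 libraries between 5.22 and 5.50, and MXD3 and MNT had 3.13 and 2.80. Among these 5, MXD4 and MYCBP lay apart in both groups, with MXD4 the higher with carnosine and MYCBP the higher in controls. MGA and MXD3 lay apart with carnosine only, and MYCBP and MGA in controls only. MXD3 and MNT overlapped in both groups. MXD1 and MXI1 were lowest at 1.24 and 1.17 and overlapped in both groups. The places of MXD3 and MYCBP depended on the length used. Per kilobase of the longest coding transcript, the mean was 7.10 for MXD3, beside 9.58 for MXD4, 6.38 for MGA and 5.85 for MYCBP.

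The level of MYC over the summed levels of MXD1, MXI1, MXD3, MXD4, MNT and MGA, both per kilobase, was 0.827 and 1.29 in the carnosine libraries and 1.501 and 1.66 in controls. Both carnosine libraries were below both controls, and the level of MYC over that of MAX showed the same order, with 1.44 and 1.99 in the carnosine libraries and 2.53 and 2.50 in controls. The summed antagonists had 20.8 and 19.2 CPM per kilobase with carnosine and 19.2 and 16.9 in controls. No test was made of these ratios, which combine members whose single differences did not pass, and RNA levels say nothing of the protein dimers.

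**Figure D3:**
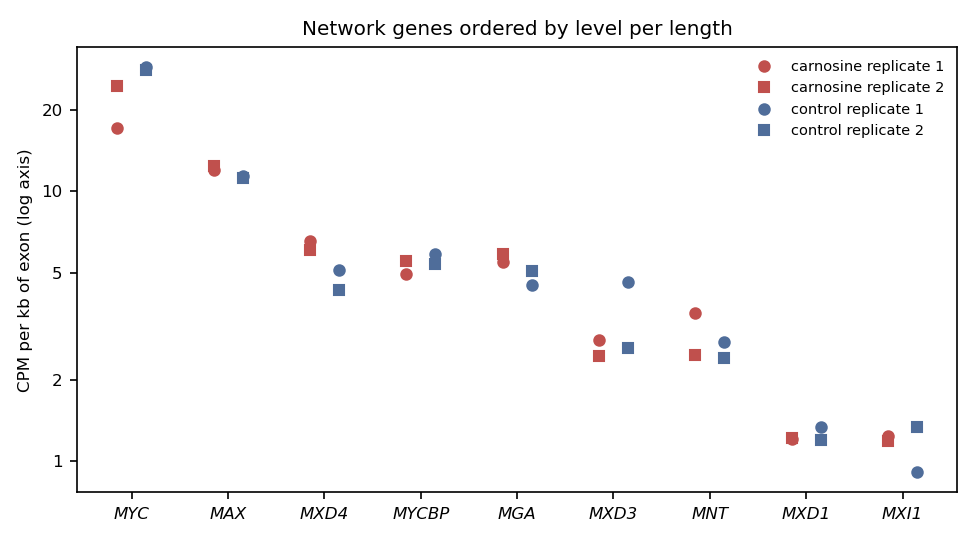
CPM per kilobase of exon (y axis, log scale) of the network genes, ordered by their mean over the 4 libraries, with carnosine libraries in red on the left and controls in blue on the right of each gene. MYC and MAX are the highest members, and MXD1 and MXI1 the lowest.

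Genes around the network were taken from lists of its paralogs, cofactors, regulators and targets. Of 87 genes in the lists of paralogs, cofactors and regulators, 82 were tested and 8 passed (9.76%, near the 8.31% of all tested genes), with 1 higher and 7 lower. Their median log2 fold change was -0.08. Without either control replicate fewer of them were called, as among all tested genes. That median was -0.009 and -0.111 without control replicate 1 or 2, and -0.057 and -0.082 without carnosine replicate 1 or 2.

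MYC's paralogs were close to silent: MYCN had no count, and MYCL had 0 and 3 counts with carnosine and 2 and 3 in controls. In the parallel branch, where MLX takes the place of MAX, MLX had 76.3 and 81.0 CPM with carnosine and 99.3 and 92.7 CPM in controls, apart in all libraries, but did not pass (log2 fold change -0.29, edgeR adjusted p = 0.116). MLXIP, or MondoA, the glucose-sensing partner of MLX, had a log2 fold change of 0.22 (edgeR adjusted p = 0.519). None of the 3 tested genes of this list passed, where 8.31% of all tested genes passed.

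None of the 14 partners and coactivators of MYC passed (0 of 14 in edgeR, where 8.31% of all tested genes passed). At an unadjusted p under 0.05 there were 7, where 27.4% of all tested genes reached that level. TRRAP, the scaffold of histone acetyltransferase complexes, and HCFC1, a chromatin cofactor, had the most counts, with log2 fold changes of 0.11 and -0.28 and overlapping groups. The median of the list was 0.001.

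Of 16 corepressor genes of the SIN3 and NCOR complexes, through which MXD and MNT dimers act, 1 passed (6.25%, beside 8.31% of all tested genes). ING2, a reader of methylated histone H3 in the SIN3 complex, had 8.13 and 7.71 CPM with carnosine and 11.7 and 11.9 CPM in controls, and fell by 0.57 ± 0.14 on the log2 scale (edgeR adjusted p = 0.0490). Its call ended with each other scaling, in limma-voom, and on leaving out each library (range of adjusted p 0.0506 to 0.198). The median of the list was -0.05.

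MGA is the DNA-binding scaffold of PRC1.6, a Polycomb complex that represses germ line genes. Of 12 tested partners of MGA in this complex 3 fell, 0 rose and 9 did not pass, and 11 of the 12 had a log2 fold change under 0, the median being -0.26. Of all tested genes 4.36% passed as lower. The defining subunit PCGF6, a RING finger protein, had 3.71 and 4.83 CPM with carnosine and 8.02 and 8.20 CPM in controls, a log2 fold change of -0.93 ± 0.19 (SE, edgeR adjusted p = 0.0333). RNF2, the ubiquitin ligase RING1B, had 12.7 and 12.8 CPM with carnosine and 19.6 and 18.4 CPM in controls (log2 fold change -0.58 ± 0.12, edgeR adjusted p = 0.0337). L3MBTL2, a reader of histone marks, had 53.3 and 53.7 CPM with carnosine and 70.7 and 74.4 CPM in controls (log2 fold change -0.44 ± 0.09, edgeR adjusted p = 0.0362). MGA itself lay on the other side of 0, as given above, and RYBP was the 1 tested partner above 0.

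The 3 calls among partners of MGA ended without control replicate 1 (edgeR adjusted p from 0.0695 to 0.161), without control replicate 2 (0.0812 to 0.208) and without carnosine replicate 1 (0.0602 to 0.0652), while the log2 fold changes stayed between -0.95 and -0.41. Without carnosine replicate 2 that of L3MBTL2 ended (edgeR adjusted p = 0.0525). RING1 had no count in any library and was not tested. The list shares HDAC1 and HDAC2 with the corepressors, WDR5 with the coactivators and CBX3 with the genes known to be activated by MYC.

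**Figure D4:**
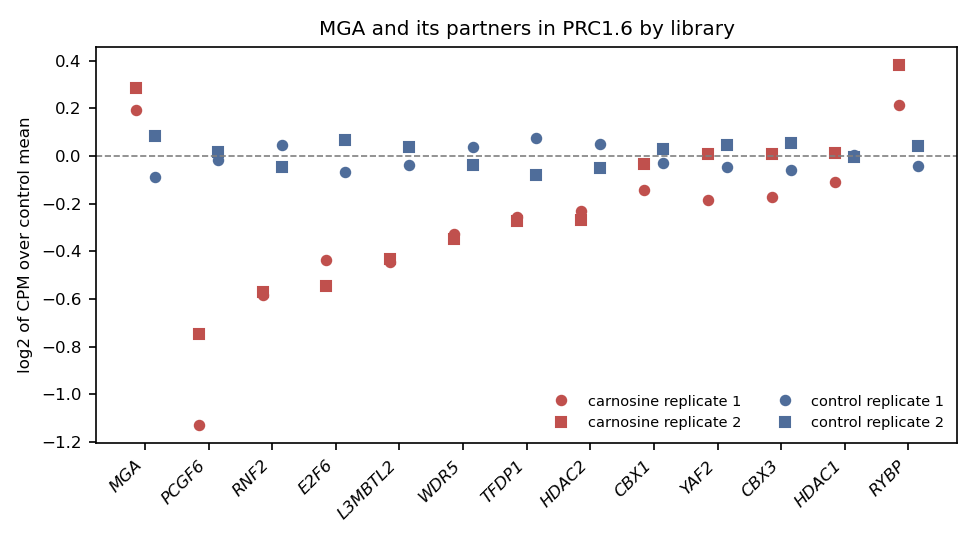
Log2 of CPM over the control mean (y axis) for MGA and its 12 tested partners in PRC1.6, with carnosine libraries in red on the left and controls in blue on the right of each gene. Both carnosine libraries lie below both controls for 8 of 12 partners (28.8% of all tested genes), and above them for MGA and RYBP (27.8% of all tested genes).

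Among 16 genes that set the life of the MYC protein 2 fell (12.5%, where 4.36% of all tested genes fell), and the median was -0.07. SKP2, a subunit of a ubiquitin ligase that acts on MYC and on the cell cycle inhibitor p27, had 60.4 and 67.3 CPM with carnosine and 90.0 and 84.2 CPM in controls (log2 fold change -0.45 ± 0.10, edgeR adjusted p = 0.0451). CIP2A (listed as KIAA1524), which holds back the phosphatase PP2A and so keeps MYC phosphorylated, had 48.1 and 53.5 CPM with carnosine and 71.99 and 69.1 CPM in controls (log2 fold change -0.47 ± 0.10, edgeR adjusted p = 0.0373). Both calls ended without control replicate 1, control replicate 2 or carnosine replicate 1 (edgeR adjusted p from 0.0828 to 0.204).

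Of 20 tested regulators of MYC transcription and of its mRNA, IGF2BP3 fell and STAT3 rose (10%, near the 8.31% of all tested genes). The median was 0.02. IGF2BP3, an oncofetal RNA-binding protein that steadies target mRNAs, MYC's among them, shares 1521 of its 8511 exonic bases with MALSU1 of the opposite strand. MALSU1 had a mean count of 2127.5. IGF2BP3 had 103.0 and 108.6 CPM with carnosine and 208.7 and 221.0 CPM in controls, a log2 fold change of -1.02 ± 0.10 (SE, edgeR adjusted p = 0.00939). It passed in each of the 12 alternatives run. STAT3, a transcription factor downstream of cytokine receptors that activates MYC, had 258.2 and 285.4 CPM with carnosine and 182.0 and 154.2 CPM in controls, a log2 fold change of 0.69 ± 0.12 (SE, edgeR adjusted p = 0.0261), and its call ended without control replicate 2 (edgeR adjusted p = 0.141).

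Of 4 tested genes in the list around MYCBP none passed edgeR, where 8.31% of all tested genes passed. At an unadjusted p under 0.05 there was 1, where 27.4% of all tested genes reached that level. MYCBP2, a giant ubiquitin ligase that binds MYC, had 299.9 and 276.5 CPM with carnosine and 236.0 and 212.3 CPM in controls. Its groups lay apart, and its log2 fold change of 0.36 ± 0.11 missed the threshold in edgeR (adjusted p = 0.0933) and passed in DESeq2 (adjusted p = 0.0331). AKAP8, a nuclear anchor of protein kinase A, had a log2 fold change of -0.18 (edgeR adjusted p = 0.268).

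Of 68 tested genes known to be activated by MYC 15 fell, 1 rose and 52 did not pass (23.5% called, beside 8.31% of all tested genes). Of these 68 genes 60 had a log2 fold change under 0, the median being -0.40, beside a median of 0.001 over all tested genes. Both carnosine libraries were below both controls for 53 of 68, and for 28.8% of all tested genes. Without either control replicate fewer of the list were called, as among all tested genes. The list's median was -0.405 and -0.393 without control replicate 1 or 2, and -0.337 and -0.453 without carnosine replicate 1 or 2. The list was chosen with earlier results of these data known, so its direction is not independent evidence.

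NOP56, which holds together the particles that methylate ribosomal RNA, had 39.6 and 36.1 CPM with carnosine and 120.0 and 128.5 CPM in controls, a log2 fold change of -1.72 ± 0.10 (SE, edgeR adjusted p = 0.00336). NOC4L, needed for the small ribosomal subunit, had 18.2 and 17.7 CPM with carnosine and 35.5 and 32.2 CPM in controls (log2 fold change -0.91 ± 0.11). MRTO4, which acts on the large subunit, had 70.4 and 81.5 CPM with carnosine and 133.3 and 139.5 CPM in controls (log2 fold change -0.85 ± 0.11). In each of these genes the groups lay far apart against the spread within a group.

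MYBBP1A, a nucleolar protein, had 69.1 and 70.8 CPM with carnosine and 120.2 and 117.2 CPM in controls (log2 fold change -0.76 ± 0.09). WDR74, a nucleolar factor of the large subunit, had 39.9 and 41.0 CPM with carnosine and 64.98 and 63.4 CPM in controls (log2 fold change -0.67 ± 0.09). PA2G4, also called EBP1, a growth regulator that binds ribosomes, had 161.4 and 156.1 CPM with carnosine and 253.6 and 251.3 CPM in controls (log2 fold change -0.67 ± 0.10). Its call ended without control replicate 1 or 2 (edgeR adjusted p = 0.0551 and 0.0613).

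Outside the nucleolus, CDC25A, the phosphatase that switches on cyclin-dependent kinases, had 31.8 and 31.1 CPM with carnosine and 53.9 and 52.4 CPM in controls (log2 fold change -0.76 ± 0.09, edgeR adjusted p = 0.0123). DCTPP1, which clears unusual nucleotides, had 27.9 and 27.2 CPM with carnosine and 48.6 and 49.2 CPM in controls (log2 fold change -0.83 ± 0.09). DCTPP1 shares 42.1% of its exonic bases with ZNF771 of the opposite strand, which had a log2 fold change of 0.62. HK2, the hexokinase, was the 1 member of the list to rise, with 275.7 and 236.2 CPM with carnosine and 159.1 and 163.2 CPM in controls (log2 fold change 0.67 ± 0.12, edgeR adjusted p = 0.0234). That call ended without control replicate 1 or 2 (edgeR adjusted p = 0.0918 and 0.0857).

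The E-box CACGTG was in a promoter window of 32 of the 58 listed genes found in the RefSeq table (55.2%), beside 8.77% of all genes in it. Among genes called lower it was present for 5 of 12, and among tested genes that were not called lower for 26 of 45. No test was made of these shares, and they say nothing of MYC's binding.

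**Figure D5:**
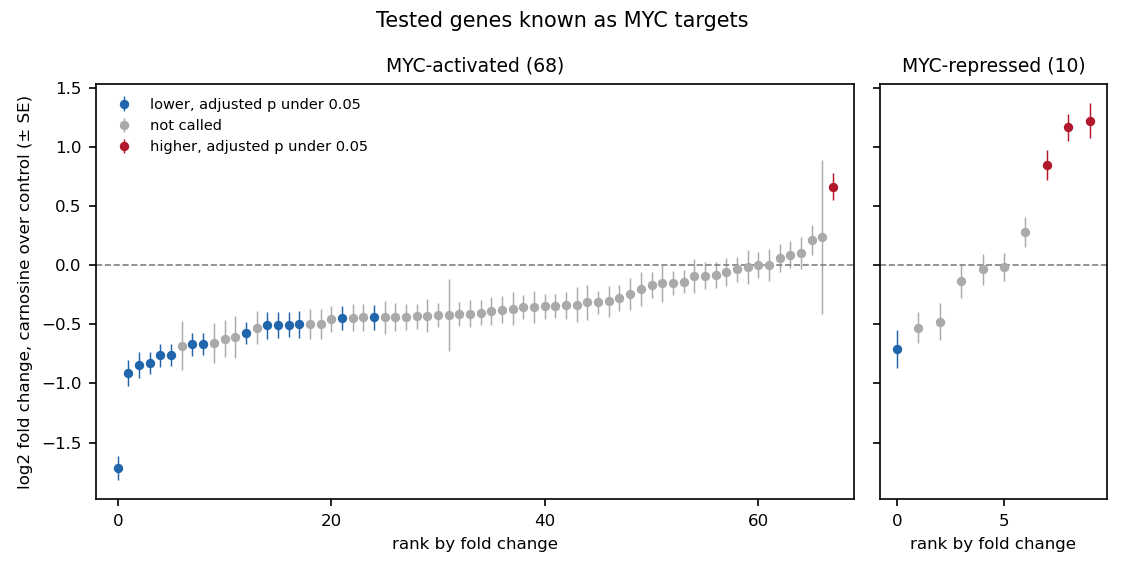
Log2 fold change, carnosine over control (y axis, whiskers are SE), of 68 tested MYC-activated genes (left) and 10 tested MYC-repressed genes (right), each ordered by its fold change. Blue points are lower and red points higher at an adjusted p under 0.05: 15 lower and 1 higher on the left, 1 lower and 3 higher on the right.

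Of 10 tested genes known to be repressed by MYC 3 rose, 1 fell and 6 did not pass (of all tested genes 3.95% rose and 4.36% fell), around a median of -0.02 on the log2 scale. With upper-quartile scaling and library totals only, the fall was not called, and with library totals only the median was 0.002. GAS1, a membrane protein of growth arrest, had 11.1 and 12.03 CPM with carnosine and 4.81 and 5.10 CPM in controls (log2 fold change 1.22 ± 0.15, edgeR adjusted p = 0.0123). THBS1, or thrombospondin 1, had 38.3 and 37.7 CPM with carnosine and 17.9 and 15.9 CPM in controls (log2 fold change 1.17 ± 0.11, edgeR adjusted p = 0.00878). PDGFRB, the receptor of platelet-derived growth factor, had 110.4 and 100.4 CPM with carnosine and 64.2 and 52.6 CPM in controls (log2 fold change 0.85 ± 0.13, edgeR adjusted p = 0.0170). The groups lay apart for all 3.

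The gene that fell was DDIT3, a stress factor of the integrated stress response, with 15.7 and 12.4 CPM with carnosine and 20.7 and 25.2 CPM in controls (log2 fold change -0.71 ± 0.16, edgeR adjusted p = 0.0445). The call of DDIT3 ended without control replicate 2 (edgeR adjusted p = 0.162) and without carnosine replicate 2 (0.0650). DDIT3 shares 355 of its 1307 exonic bases with MARS of the opposite strand, which had a mean count of 14912, so its counts are uncertain. The cell cycle inhibitors CDKN1C, CDKN2B and CDKN2C, also on the list, had no count in any library, while CDKN1A had a log2 fold change of -0.03.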

How the data were processed

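The authors deposited raw, unscaled gene counts as a single table. The submitters' processing notes name bcl2fastq (2.17.0), HISAT2 (2.1.0), HTSeq (0.6.1) and hg38. Annotation release, strand setting and handling of reads with several matches are not stated there, which bears on genes that share exons. Genes were kept by filterByExpr (a minimum count of 10 in 2 libraries, a total of 15) and scaled by TMM factors between 0.976 and 1.04. Carnosine was compared with control by edgeR 4.0.16 (its two-sided quasi-likelihood test with 1 term for the group, leaving 2 residual degrees of freedom, adjusted by Benjamini-Hochberg over 16340 genes, threshold 0.05) in R 4.3.3. On 1 set of simulated counts, more of its calls were false than the threshold allows. CPM uses scaled library totals, and the SE is the log2 fold change over the square root of F. Counting error is small at these depths, and the spread between libraries sets the precision.

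Other settings were DESeq2 1.42.0, limma 3.58.1 (voom), other scalings and filters, the replicate number as a block, and leaving out each library with the filter run again. Exon lengths, coordinates and overlaps came from GENCODE 29 (GRCh38). Named genes were all members, the nearest genes to MYC, and per list up to 4 passing genes with the smallest adjusted p (8 for MYC-activated genes) or the 2 with most counts where none passed. RYBP, HK2, MYCL, CDKN1A, the markers and the genes without counts were named after their values were seen. Members and lists were chosen with earlier results of these data known.

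The labels do not say that replicates came from separate cultures, so p values measure the spread between these libraries, which may be technical. No replicate was a copy of another: chi-square per degree of freedom between them was 57.6 for carnosine and 36.6 for control.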

Additional observations from a re-analysis of the deposited data

How the results depend on the processing

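With other scalings, a mean count of at least 10, or limma-voom, the counts of called genes stayed within 1.5 times those reported, and 0 members were called. DESeq2 called 2211 genes in all, 1 member, 34 MYC-activated genes, 16 cofactors and regulators and 5 partners of MGA. With no filter on low counts 3145 genes were called (12% of those tested), with 3 members (MYC, MXD3 and MXD4), 42 MYC-activated genes, 24 cofactors and regulators and 5 partners of MGA. In that fit, and with the replicate block, edgeR estimated infinite prior degrees of freedom, against 4.92 in the reported fit. With the replicate number as a block 5767 genes were called (35.3%), with 4 members (MYC, MXD3, MXD4 and MGA), 48 MYC-activated and 7 MYC-repressed genes, 38 cofactors and regulators and 8 partners of MGA. The labels give no shared origin to libraries of a number, whose deviations from the group means correlated at 0.315, so the block is no design of the study.

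Leaving out 1 library gave 505 to 1595 called genes, 0 to 1 members (MXD3 without control replicate 2, MYC without carnosine replicate 2), 8 to 31 MYC-activated genes (8 without control replicate 1 or 2, 31 without carnosine replicate 2), 3 to 4 MYC-repressed genes, 1 to 9 cofactors and regulators and 0 to 2 partners of MGA. Then 1 residual degree of freedom remains, and the lone library is taken to vary like the other group. A tally over 12 settings took in 39 genes, namely the members, those picked per list, HK2 and CDK4, without the genes nearest to MYC. Of its 468 values 405 kept their direction and their side of the threshold. A call was lost in 39 and gained in 16, and 8 that were not called turned their sign. With the length of the longest coding transcript, chosen after the data were seen, the level of MYC over its antagonists was 0.838 with carnosine and 1.23 in controls, against 1.06 and 1.58 with all exons, MXD3 moved from place 6 to place 4, MYCBP from place 4 to place 6, and MXD1 and MXI1 exchanged places 8 and 9. Depth limits MXI1 most among the members, with 275 to 361 counts a library.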
